A study of Homo sapiens with 18 samples.

Results

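YAP1 and WWTR1 (the gene of TAZ), the paired transcriptional co-activators of the Hippo pathway, were followed with 6 of their known target genes, LATS2, CTGF, CYR61, ANKRD1, AMOTL2 and AXL. These 8 genes, of 38716 gene symbols in the tables, were chosen by name and not by their values, and all 8 were tested in both assays. In Ribo-seq, ANKRD1 passed the read filter only through the cells described below as old. CTGF and CYR61 are listed in the files under their current symbols, CCN2 and CCN1. The measurements came from IMR90 (fibroblasts of human fetal lung) in 3 conditions. Young cells were proliferating at low passage. Old cells had reached replicative senescence at high passage. ICM cells were of low passage and had received inflachromene, an inhibitor that directly binds HMGB1 and HMGB2. The sample labels give no dose or duration for ICM. All the cells were of 1 line, so that differences between donors could not be seen. Each condition had 3 replicate lysates, which the methods describe as independently grown, and each lysate gave 1 library of ribosome footprints (Ribo-seq, the mRNA fragments that ribosomes shield from nuclease) and 1 library of poly(A)-selected RNA (mRNA-seq), 18 libraries in all.

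In the Hippo pathway, the kinases STK3 and STK4 activate LATS1 and LATS2, which phosphorylate YAP1 and TAZ and keep them in the cytoplasm. When the kinases are quiet, as in spread or stretched cells, YAP1 and TAZ enter the nucleus, where they bind TEAD transcription factors and activate genes such as CTGF, CYR61 and ANKRD1. Several of the targets, LATS2 and AMOTL2 among them, restrain YAP1 and TAZ in turn. The activity of YAP1 and TAZ is set largely by their location and phosphorylation, which neither assay measured.

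TEAD proteins recognise the letters GGAATG, and the members were searched for them on both strands in the 250 bases before each annotated transcription start (RefSeq, GRCh38.p14). A match is a description of the letters and not evidence of binding. Promoter entries were matched for 7 of the 8 members, of which WWTR1, AMOTL2 and AXL had 2 starts each, and CYR61 had no entry. Of all 35116 such windows, 11.9% held at least 1 match and 0.94% held at least 2. The CTGF window held 3 matches, beginning 169, 104 and 95 bases before the start, and the ANKRD1 window held 2, at 220 and 128 bases. YAP1 held 1 match at 162 bases, the second AMOTL2 start 1 at 69 bases and the second AXL start 1 at 212 bases. No match stood in the windows of either WWTR1 start, of LATS2, or of the first starts of AMOTL2 and AXL. TGANTCA, a loosened form of the AP-1 motif that allows any middle letter, was present in 6.57% of all windows. Among the members it was found in the ANKRD1 window alone, 195 bases before the start, and overlapped no TEAD match. This match reads TGATTCA, whereas the usual AP-1 motif has C or G in the middle. The CArG box, the site of serum response factor, was in 1.16% of all windows and in none of the members'. The windows of CTGF and ANKRD1 are printed because these members rose most in old cells, and that of YAP1 because it is the co-activator with a match. Capitals mark the TEAD letters, all in the orientation of the gene in these windows, and each sequence runs 5′ to 3′ up to the base before the start. CTGF lies at chr6:131951373-131951622 on the minus strand, ANKRD1 at chr10:90921088-90921337 on the minus strand and YAP1 at chr11:102110197-102110446 on the plus strand.
CTGF: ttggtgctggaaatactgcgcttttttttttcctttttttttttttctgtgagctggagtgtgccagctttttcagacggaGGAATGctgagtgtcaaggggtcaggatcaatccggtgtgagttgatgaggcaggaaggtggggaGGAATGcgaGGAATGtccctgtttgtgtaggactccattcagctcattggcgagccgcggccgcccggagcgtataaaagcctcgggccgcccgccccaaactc
ANKRD1: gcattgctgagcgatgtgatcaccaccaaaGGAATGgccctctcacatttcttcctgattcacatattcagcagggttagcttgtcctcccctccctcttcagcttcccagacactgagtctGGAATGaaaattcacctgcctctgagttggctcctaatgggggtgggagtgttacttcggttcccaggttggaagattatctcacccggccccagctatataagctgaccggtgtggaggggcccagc
YAP1: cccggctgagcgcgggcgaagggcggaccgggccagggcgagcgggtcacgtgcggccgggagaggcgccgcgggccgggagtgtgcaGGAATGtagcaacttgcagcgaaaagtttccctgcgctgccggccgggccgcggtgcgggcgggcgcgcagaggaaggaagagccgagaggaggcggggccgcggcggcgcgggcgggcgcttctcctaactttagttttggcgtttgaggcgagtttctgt

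**Figure D1:**
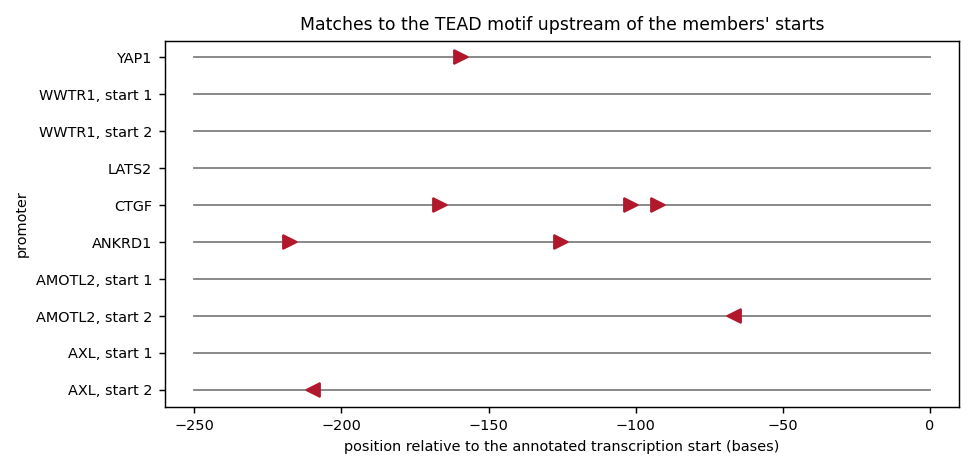
Position of each match to the TEAD letters (triangle, pointing right for the plus and left for the minus orientation relative to the gene) in the 250 bases before each annotated start of 7 members. CTGF carries 3 matches and ANKRD1 2, and 5 of the 10 windows carry none.

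Depth set what could be read from each assay. The mRNA-seq libraries held 7902301 to 14144345 reads in genes (a 1.79-fold range), and the Ribo-seq libraries 46170 to 1718431 reads in coding sequence (CDS), a 37.2-fold range. Levels are given as CPM, counts relative to library size with TMM scaling, with the mean ± SD of 3 libraries. Markers of fibroblasts (6 of 6 detected in every condition) summed to 27150 to 30992 CPM in young, 25784 to 29353 in old and 10509 to 10738 in ICM mRNA-seq, whereas epithelial and endothelial markers (3 genes each) summed to at most 4.41 CPM, with KRT5 and CDH5 at 0 in at least 1 condition. The proliferation genes MKI67 and TOP2A summed to 282 to 303 CPM in young, 62.9 to 71.5 in old and 3.22 to 4.21 in ICM. The part of these shifts in the results below was not tested. In Ribo-seq, 3 libraries stood apart. Young replicate 1 and old replicate 2 had 34.4% and 15.0% of their reads in CDS, and 7 genes whose mRNA was high in ICM cells alone summed to 654 and 805 CPM in them, against 68.7 to 91.0 in the other young and old libraries. In ICM replicate 3, 18 genes with most of their mRNA in young cells summed to 936 CPM, against 34.5 and 205 in the other ICM libraries. The footprint and efficiency fits were therefore also run, and the 5′ UTR shares also taken, without these 3 lysates.

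In mRNA-seq, old cells differed from young cells most in ANKRD1 and CTGF, which rose with LATS2 and WWTR1, while AXL fell. ICM cells shared higher CTGF, LATS2 and WWTR1 and lower AXL relative to young cells, but had less ANKRD1 and less YAP1. Genes were called where the adjusted p was under 0.05 (edgeR quasi-likelihood test over all genes, Benjamini-Hochberg). By that rule 6 of 8 members were called in ICM vs young (3 higher, 3 lower), where 71% of the 13173 genes tested were called, 34.9% higher and 36.1% lower. In old vs young 5 were called (4 higher, 1 lower), against 66.1% of all genes, 32.4% higher and 33.7% lower. In ICM vs old 6 were called, all lower in ICM, against 63.3% of all genes, 30.7% higher and 32.6% lower in ICM. The counts called in total lay near the background, whereas in ICM vs old the count lower in ICM (6 of 8) lay above its background of 32.6%, a difference that was not tested. The comparisons share libraries, since both ICM and old cells were set against the same young cells. In such bulk samples, fewer cells that express a gene and less RNA per cell cannot be told apart.

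**Figure D2:**
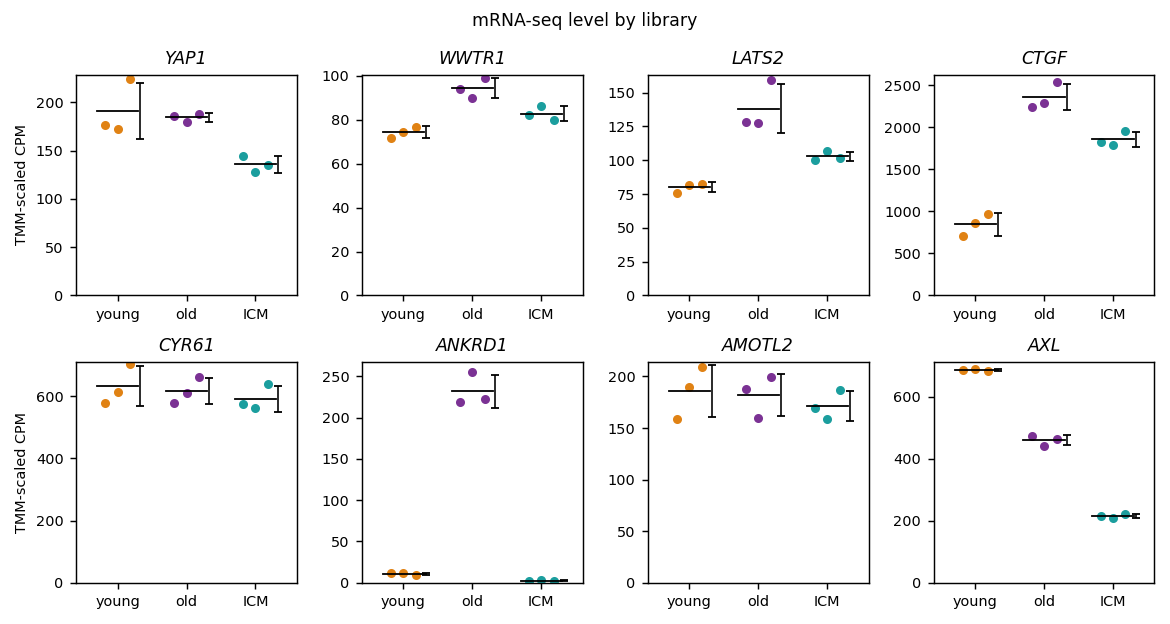
mRNA-seq level in TMM-scaled CPM (y axis, from 0) of the 8 members in young, old and ICM cells; points are libraries, lines are means and bars are SDs (n = 3). ANKRD1 lay at 218 to 255 CPM in old cells and under 12 CPM elsewhere, CTGF was higher in both old and ICM than in young cells, and AXL stepped down from young to old to ICM.

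The co-activators themselves changed little. YAP1 mRNA was at 177, 172 and 224 CPM in young replicates 1 to 3, at 186, 179 and 188 CPM in old cells and at 145, 127 and 135 CPM in ICM cells. Every ICM library lay under every other library, whereas old and young overlapped. YAP1 fell in ICM vs young by 0.49 on the log2 scale (SE 0.08, adjusted p = 1.2e-05, edgeR) and in ICM vs old by 0.44 (SE 0.08, adjusted p = 6.14e-05), and between old and young cells the change was -0.05 (95% interval -0.22 to 0.11). WWTR1 mRNA was at 71.7, 74.6 and 76.9 CPM in young, 94.0, 90.0 and 99.3 CPM in old and 82.3, 86.4 and 79.9 CPM in ICM cells. The 3 conditions did not overlap and ran young, ICM, old. The rise was 0.34 on the log2 scale in old vs young (SE 0.06, adjusted p = 8.49e-05, edgeR) and 0.15 in ICM vs young (SE 0.07, adjusted p = 0.0413), and the level in ICM was lower than in old by a log2 change of -0.19 (adjusted p = 0.0134). WWTR1 and LATS2 have annotated antisense genes, and whether the counting used strand is not given in the sources used here. With reads in coding sequence alone, none of the 3 WWTR1 differences was called, at log2 changes of 0.21, 0.06 and -0.15 and adjusted p of 0.0597, 0.591 and 0.170 (edgeR). The 3′ UTR held 48.7% ± 3.37 of WWTR1 reads in young, 54.8% ± 4.34 in old and 51.5% ± 2.11 in ICM cells (SD, n = 3). For YAP1 these shares were 49.5% ± 4.23, 45.9% ± 6.20 and 45.1% ± 2.02, with overlapping ranges. The small ICM vs young rise of WWTR1 was also lost without filtering of low genes and when young replicate 1, young replicate 2, old replicate 1, ICM replicate 1 or ICM replicate 2 was left out (log2 changes 0.12 to 0.16 in these fits). The difference between ICM and old cells was lost without old replicate 3 (-0.15, adjusted p = 0.0553, edgeR) or ICM replicate 3 (-0.16, adjusted p = 0.0687).

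LATS2, the kinase that is both a target and an inhibitor of YAP1, rose in old cells and by less in ICM cells. Its mRNA was at 75.9, 81.5 and 82.7 CPM in young, 128, 127 and 159 CPM in old and 100, 107 and 102 CPM in ICM cells, and the conditions did not overlap. Against young cells this was a log2 change of 0.79 in old (SE 0.08, adjusted p = 9.53e-09, edgeR) and of 0.36 in ICM (SE 0.08, adjusted p = 0.000305). In ICM it was lower than in old cells by a log2 change of -0.42 (adjusted p = 4.44e-05). AMOTL2, a junction-associated protein that binds and retains YAP1, gave 159, 190 and 209 CPM in young, 188, 159 and 199 CPM in old and 169, 158 and 187 CPM in ICM cells. All 3 conditions overlapped. The AMOTL2 log2 changes were -0.12 in ICM vs young (95% interval -0.31 to 0.07), -0.04 in old vs young (-0.22 to 0.15) and -0.09 in ICM vs old (-0.27 to 0.10). Only without young replicate 1 was the first of these called (-0.21, adjusted p = 0.0374, edgeR).

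CTGF and CYR61, secreted matricellular proteins of one family and the standard readouts of YAP1 and TAZ, parted. CTGF mRNA was at 705, 866 and 973 CPM in young, 2247, 2294 and 2536 CPM in old and 1826, 1789 and 1955 CPM in ICM cells. No conditions overlapped, and both old and ICM cells stood well above young ones. The fold over young was 2.78 in old (log2 change 1.48, SE 0.09, adjusted p = 1.99e-12, edgeR) and 2.19 in ICM cells (1.13, SE 0.09, adjusted p = 9.56e-11). ICM cells held less CTGF mRNA than old cells, at a log2 change of -0.35 (SE 0.09, adjusted p = 0.00135). CYR61 mRNA was at 579, 613 and 702 CPM in young, 576, 611 and 661 CPM in old and 574, 560 and 638 CPM in ICM cells, so that the conditions overlapped throughout. Its log2 changes were -0.10 in ICM vs young (95% interval -0.25 to 0.06), -0.04 in old vs young (-0.19 to 0.12) and -0.06 in ICM vs old (-0.22 to 0.09). These intervals lie below the changes of CTGF against young cells.

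ANKRD1, a stress-responsive ankyrin repeat protein of muscle and fibroblasts, moved in opposite directions in the senescence of old cells and under ICM. Its mRNA was at 11.9, 11.4 and 9.44 CPM in young, 218, 255 and 222 CPM in old and 2.40, 3.05 and 2.71 CPM in ICM cells. These ICM levels rest on 32, 33 and 32 reads. The conditions were far apart, with a 21.3-fold rise in old vs young (log2 change 4.41, SE 0.09, adjusted p = 4.8e-20, edgeR) and a 4.01-fold fall in ICM vs young (-2.00, SE 0.16, adjusted p = 2.29e-10). The direct difference between ICM and old cells was a log2 change of -6.42 (SE 0.11, adjusted p = 3.35e-22, edgeR), or 85.5-fold. The direction and call of all 3 ANKRD1 differences held when each replicate was left out in turn.

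AXL, a receptor tyrosine kinase that YAP1 and TEAD are known to activate, fell in both conditions. Its mRNA was at 685, 688 and 682 CPM in young, 474, 441 and 462 CPM in old and 215, 209 and 223 CPM in ICM cells. The young libraries agreed within an SD of 2.79 CPM and no conditions overlapped. AXL fell by 0.58 on the log2 scale in old vs young (SE 0.06, adjusted p = 1.3e-08, edgeR) and by 1.67 in ICM vs young (SE 0.06, adjusted p = 1.34e-16), a 3.18-fold fall. ICM cells were 2.13-fold below old cells (log2 change -1.09, SE 0.06, adjusted p = 3.25e-13, edgeR). AXL, a gene that YAP1 induces, thus moved against CTGF in both comparisons with young cells.

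To place the members beside one another, CDS reads as CPM, without TMM, were divided by the coding length of the canonical transcript (CPM per kb, level in mRNA-seq). In young cells the order was CTGF (665 ± 118), CYR61 (593 ± 59.8), AXL (279 ± 2.61), YAP1 (88.8 ± 4.82), AMOTL2 (69.0 ± 11.2), WWTR1 (39.9 ± 2.64), LATS2 (26.7 ± 1.74) and ANKRD1 (10.9 ± 1.11; SD, n = 3), and only CTGF and CYR61 overlapped as neighbours. CTGF stood above 98.3% of 12609 tested genes with a coding length in young cells and above 99.6% in old and in ICM cells. In old cells ANKRD1, at 229 ± 25.7 CPM per kb, stood after CTGF and CYR61 and above AXL at 184 ± 12.1, and as neighbours only LATS2 (44.3 ± 7.12) and WWTR1 (44.2 ± 5.18) overlapped. In ICM cells ANKRD1 was last at 2.91 ± 1.02 CPM per kb, and only YAP1 (70.5 ± 1.37) and AMOTL2 (68.0 ± 8.31) overlapped. YAP1 thus had the higher mRNA level of the 2 co-activators per length in each condition.

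The mean footprint levels gave the same order of conditions as mRNA for CTGF, AXL, YAP1 and LATS2, but footprints left the small changes unresolved. In Ribo-seq, 2 of 8 members were called in ICM vs young (CTGF higher, AXL lower), against 26.6% of 4643 genes, 2 in old vs young (ANKRD1 and CTGF higher), against 36.3%, and 2 in ICM vs old (ANKRD1 and AXL lower), against 13.4%. Without the 3 lysates that stood apart, the counts were 2, 2 and 3, the added call being CTGF in ICM vs old.

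**Figure D3:**
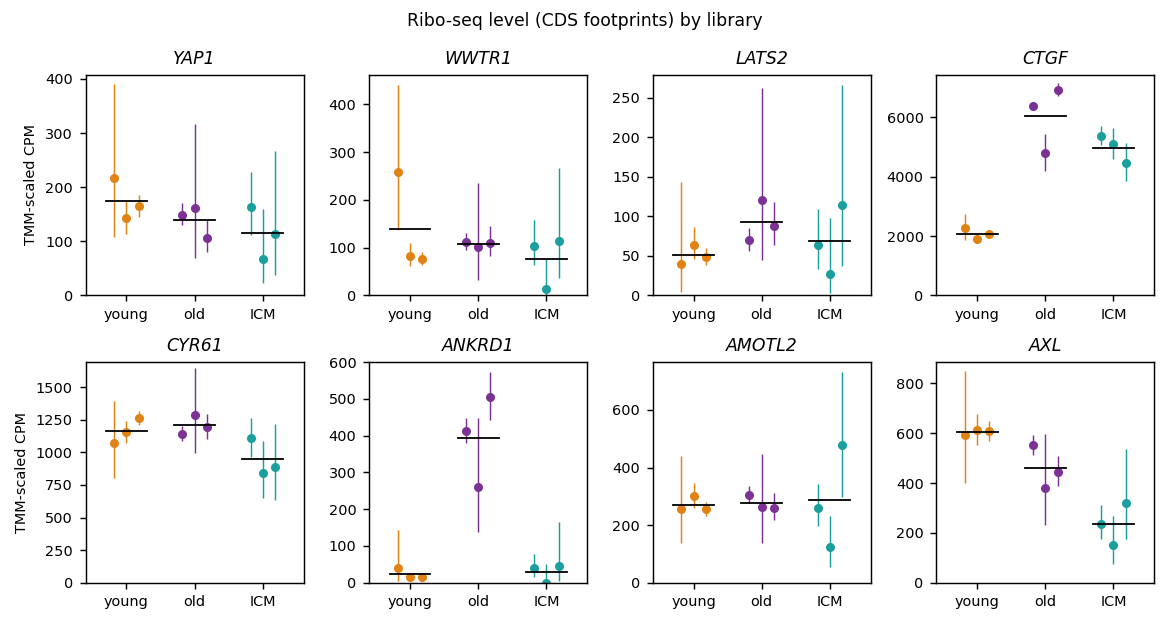
Ribo-seq level (CDS footprints, TMM-scaled CPM from 0 on the y axis) of the 8 members in young, old and ICM cells. Points are libraries in replicate order with 95% Poisson intervals, which cover counting error only, and lines are means. The intervals are widest in young replicate 1, old replicate 2 and the ICM libraries. The points of young lie apart from the other groups for CTGF and those of old for ANKRD1. The points of all 3 groups are separated for AXL, but intervals overlap between each pair of groups, among them those of young replicate 1 and ICM replicate 3.

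CTGF footprints stood at 2278, 1902 and 2057 CPM in young, 6397, 4789 and 6935 CPM in old and 5376, 5088 and 4475 CPM in ICM cells. Young cells lay under both others, which overlapped through old replicate 2. The log2 changes were 1.57 in old vs young (SE 0.16, adjusted p = 1.65e-09, edgeR) and 1.29 in ICM vs young (SE 0.16, adjusted p = 1.94e-07). ICM vs old gave -0.29 (adjusted p = 0.259), and -0.54 without old replicate 2 (adjusted p = 0.0254) or -0.47 without the 3 lysates (adjusted p = 0.00401, edgeR), where the median change over all genes was -0.12 and -0.15. AXL footprints stood at 594, 614 and 608 CPM in young, 552, 382 and 445 CPM in old and 237, 150 and 320 CPM in ICM cells, with no overlap between any conditions. The AXL log2 change was -1.42 in ICM vs young (SE 0.24, adjusted p = 2.9e-05, edgeR) and -1.09 in ICM vs old (SE 0.25, adjusted p = 0.00155). In old vs young it was -0.32 (95% interval -0.70 to 0.05, adjusted p = 0.167) and was not called.

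The ANKRD1 footprints of old cells were as clear as its mRNA, and those of ICM cells were few. Old cells gave 580, 13 and 246 reads (412, 262 and 505 CPM), young cells 2, 9 and 24 reads (39.6, 14.4 and 15.3 CPM) and ICM cells 8, 0 and 2 reads (39.4, 0 and 45.7 CPM). Old libraries stood above all others, and the ICM library at 0 allows up to 40.9 CPM (3 reads). The log2 change was 4.77 in old vs young (SE 0.29, adjusted p = 4.54e-15, edgeR) and -3.79 in ICM vs old (SE 0.40, adjusted p = 4.32e-09). ICM vs young gave 0.98 (95% interval -0.37 to 2.32) and was not called. ANKRD1 passed the read filter in Ribo-seq only through its old libraries, which are not part of this comparison. Both called comparisons hold those old libraries, so their calls are not independent of the filter. Beside these reads, 4 other genes with mRNA particular to old cells (CLSTN2, KISS1, L1CAM and TMEM178B) together gave 1, 0 and 2 reads in the ICM Ribo-seq libraries and 1049, 27 and 375 in the old ones. In ICM replicate 1, the 8 ANKRD1 reads thus stood beside 1 read of those genes, and in ICM replicate 3 the 2 reads stood beside 2. The part of reads from other conditions in the ICM footprints of ANKRD1 was not tested.

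None of the other 5 members was called in Ribo-seq (edgeR and DESeq2), and ICM footprints were few for most of them. Pooled over the 3 ICM libraries, there were 43 CDS reads for YAP1, 27 for WWTR1, 20 for LATS2, 83 for AMOTL2 and 326 for CYR61. YAP1 footprints stood at 218, 142 and 165 CPM in young, 149, 161 and 107 CPM in old and 163, 68.2 and 114 CPM in ICM cells. All conditions overlapped, and the 95% interval of the ICM vs young log2 change, -0.92 to 0.36, holds both no change and the mRNA change. WWTR1 footprints stood at 258, 83.1 and 75.7 CPM in young, 111, 101 and 111 CPM in old and 103, 13.6 and 114 CPM in ICM cells, again overlapping. The highest of these values came from 13 reads and the lowest from 1 read. The WWTR1 log2 change had a 95% interval of -0.23 to 0.91 in old vs young and of -0.94 to 0.81 in ICM vs young. LATS2 footprints stood at 39.6, 63.9 and 48.4 CPM in young, 69.7, 121 and 88.3 CPM in old and 64.1, 27.3 and 114 CPM in ICM cells. Old lay above young without overlap, but the log2 change of 0.55 was not called (95% interval -0.03 to 1.14, adjusted p = 0.131, edgeR); it was called with the young and old libraries fitted alone (adjusted p = 0.0445). CYR61 averaged 1162 ± 96.7 CPM in young, 1208 ± 73.8 in old and 948 ± 141 in ICM cells. Its log2 changes were 0.01 in old vs young (95% interval -0.32 to 0.35) and -0.28 in ICM vs young (-0.64 to 0.09). ICM lay below old without overlap, but the CYR61 log2 change of -0.29 was not called (95% interval -0.66 to 0.08). AMOTL2 footprints stood at 258, 300 and 255 CPM in young, 304, 262 and 261 CPM in old and 261, 123 and 480 CPM in ICM cells. The ICM libraries ranged on both sides of all the others, and the 95% intervals of the log2 change were -0.39 to 0.48 in old vs young and -0.61 to 0.49 in ICM vs young.

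**Figure D4:**
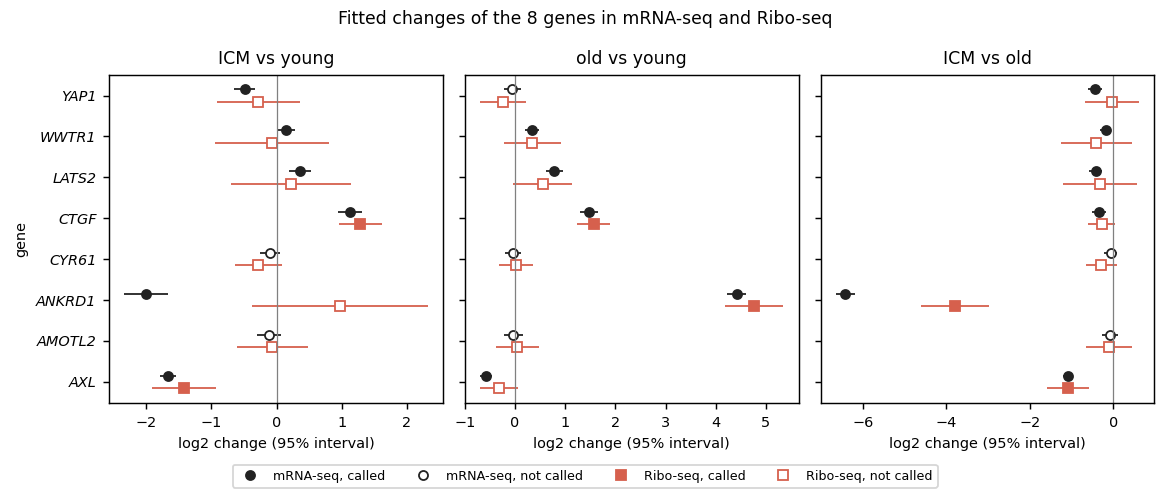
Fitted log2 change (x axis) of each member in mRNA-seq (circles) and Ribo-seq (squares) with 95% intervals, in each of the 3 comparisons (the x ranges differ); filled symbols passed an adjusted p of 0.05. In ICM vs young, CTGF (higher) and AXL (lower) were called in both assays, and ANKRD1 stood at -2.00 in mRNA-seq and 0.98 in Ribo-seq.

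Translational efficiency, the footprint level relative to the mRNA level, was tested as an interaction of assay and condition over all 18 libraries. Of the 8 members, ANKRD1 alone was called, in ICM vs young, against 2.38% of 4618 genes. The count was 0 in old vs young, against 1.43% of all genes, and 0 in ICM vs old, against 0.346%. At an unadjusted p under 0.05 the counts were 1, 0 and 1, and DESeq2 also called 1, 0 and 0 members. The ratio of ANKRD1 footprint CPM to mRNA CPM was 3.33, 1.26 and 1.62 in young, 1.89, 1.03 and 2.27 in old and 16.4, 0 and 16.8 in ICM cells. The ICM lysates thus held both the highest ratios and the lowest. The efficiency of ANKRD1 was tested only because its old libraries passed the footprint filter. The fitted log2 change was 2.91 (SE 0.81, adjusted p = 0.0487, edgeR), and 2.61 in ICM vs old (SE 0.76, adjusted p = 0.124). The call rests on the 10 ICM footprints: without ICM replicate 1 the log2 change was 1.82 (adjusted p = 0.573), and without the 3 lysates that stood apart it was 2.76 (adjusted p = 0.0873). It was also lost without young replicate 2 (adjusted p = 0.216), young replicate 3 (0.172), old replicate 1 (0.105), old replicate 3 (0.0956) or ICM replicate 3 (0.0745), and held without the other 3 replicates in turn.

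For the other members the intervals bounded the efficiency, in ICM vs young most closely for CTGF and CYR61. The young, old and ICM ratios of CTGF were 2.51 ± 0.624, 2.56 ± 0.410 and 2.69 ± 0.353 (SD, n = 3), and its change was 0.10 in old vs young (95% interval -0.27 to 0.47) and 0.17 in ICM vs young (-0.20 to 0.55) on the log2 scale. CYR61 gave 1.84 ± 0.0422, 1.97 ± 0.151 and 1.61 ± 0.283, with a log2 change of -0.15 in ICM vs young (-0.53 to 0.23). AXL gave 0.884 ± 0.0137, 0.998 ± 0.151 and 1.08 ± 0.358, with 0.23 in old vs young (-0.15 to 0.60) and 0.25 in ICM vs young (-0.26 to 0.77). For AMOTL2, LATS2, WWTR1 and YAP1 the intervals of the ICM vs young change were -0.42 to 0.71, -0.99 to 0.81, -1.14 to 0.68 and -0.45 to 0.89.

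The members also differed in where their footprints lay. Of all young footprints in UTRs and CDS, 3.24% were in the 5′ UTR. Pooled over the young libraries, this share was 7.25% for WWTR1 (15 of 207 reads, 95% exact binomial interval 4.11% to 11.7%), 7.09% for LATS2 (9 of 127, 3.29% to 13.0%) and 4.46% for YAP1 (17 of 381, 2.62% to 7.05%). Among the other targets it was 1.04% for CTGF (0.769% to 1.38%), 1.32% for CYR61 (0.930% to 1.81%), 1.62% for AMOTL2 (0.781% to 2.97%) and 1.64% for AXL (1.04% to 2.45%), and ANKRD1 had 1 such read of 37. In old cells, where the share over all genes was 9.27% (44.7% in old replicate 2 and 13.8% in old replicate 3), LATS2 stood at 11.4% (7.03% to 17.3%), WWTR1 at 5.08% (2.65% to 8.71%), YAP1 at 3.83% (1.93% to 6.75%) and CTGF at 0.509% (0.393% to 0.648%). In young cells the intervals of WWTR1 and LATS2 lay above the share over all genes and that of YAP1 held it. In old cells the intervals of WWTR1 and YAP1 lay below it and that of LATS2 held it. In ICM cells, with 3.34% over all genes, there were 0 of 27 reads for WWTR1 (up to 12.8%), 0 of 43 for YAP1 (up to 8.22%), 1 of 21 for LATS2 (0.12% to 23.8%) and 1 of 1663 for CTGF (0.0015% to 0.335%). The intervals of WWTR1, LATS2 and YAP1 lay above that of CTGF in young and in old cells and overlapped it in ICM cells. In young cells the interval of YAP1 overlapped that of AMOTL2. The shares were not set against the length of the UTRs. Without the 3 lysates that stood apart, the old shares were 11.9% for LATS2, 5.24% for WWTR1, 3.30% for YAP1, 0.511% for CTGF and 7.39% over all genes, and the young shares were 7.20%, 7.29%, 4.09%, 1.03% and 3.04% in the same order; the old WWTR1 interval (2.74% to 8.97%) then held the share over all genes. Leaving these lysates out of the shares was chosen after seeing the data. Intervals cover counting error only, and the young pool is mostly young replicate 3.

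The other genes of the pathway were taken from 3 lists. The Hippo list and the TEAD and VGLL list were made from general knowledge of the pathway. The list of further targets was a signature of YAP and TAZ targets without the members that it holds. The background for their counts in mRNA-seq is 71% of all genes called for ICM vs young, 66.1% for old vs young and 63.3% for ICM vs old. Of 20 Hippo kinases and upstream regulators, 6 were higher and 10 lower in ICM vs young mRNA-seq (median log2 change -0.13, against -0.01 over all genes), 6 higher and 8 lower in old vs young (median -0.02, against -0.01) and, comparing ICM with old, 3 higher and 8 lower (median -0.17, against -0.01). The totals called, 16, 14 and 11 of 20, lay on both sides of the background. DCHS1, a giant cadherin that feeds into the pathway, fell from 25.1 ± 4.48 CPM in young to 9.45 ± 1.29 in old and 2.12 ± 0.182 in ICM cells, a log2 change of -3.58 in ICM vs young (SE 0.17, adjusted p = 1.11e-14, edgeR), -1.42 in old vs young (adjusted p = 1.54e-09) and -2.15 in ICM vs old (adjusted p = 2e-09). WWC1, the LATS-activating scaffold KIBRA, fell from 15.5 ± 1.40 CPM in young to 6.56 ± 1.46 in old and 5.73 ± 0.281 in ICM cells (adjusted p = 3.94e-08 and 3.02e-09). SAV1, the scaffold of STK3 and STK4, rose in ICM, from 55.1 ± 2.38 CPM in young and 54.3 ± 1.44 in old to 85.2 ± 1.48 CPM (log2 change 0.63 against young, adjusted p = 9.71e-09). TAOK3, a kinase upstream of STK3 and STK4, was higher in ICM than in old cells, at 96.0 ± 2.35 against 74.9 ± 5.08 CPM (adjusted p = 0.000166).

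Of the TEAD and VGLL factors, 6 of 8 were tested in mRNA-seq (VGLL1 and VGLL2 were not). In ICM vs young 2 were higher and 4 lower (median -0.38), in old vs young 2 higher and 2 lower (median -0.02), and in ICM vs old the 3 called were lower (median -0.17). These totals, 6, 4 and 3 of 6, against 71%, 66.1% and 63.3% of all genes, rest on few genes. The all-gene medians were -0.01 in each comparison. TEAD4 fell from 21.9 ± 1.30 CPM in young to 12.4 ± 0.485 in old and 8.37 ± 1.41 in ICM cells. Its log2 changes were -0.81 in old vs young (adjusted p = 7.03e-07, edgeR) and -1.38 in ICM vs young (SE 0.11, adjusted p = 2.67e-10). TEAD2 fell from 62.8 ± 6.39 CPM in young to 32.0 ± 2.92 in old and 35.5 ± 1.00 in ICM cells. Its log2 changes were -0.97 in old vs young (SE 0.08, adjusted p = 1.17e-09, edgeR) and -0.82 in ICM vs young (adjusted p = 9.18e-09).

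Of 16 further YAP and TAZ targets, 6 rose and 6 fell in ICM vs young (median log2 change -0.09), 8 rose and 5 fell in old vs young (median 0.20), and 1 was higher and 9 lower in ICM than in old (median -0.29), with all-gene medians of -0.01 in each. The totals called, 12, 13 and 10 of 16, lay near the background in both ICM comparisons and above it in old vs young. IGFBP3, a secreted binder of insulin-like growth factors, rose from 445 ± 4.19 CPM in young to 3204 ± 37.7 in old and stood at 455 ± 28.6 in ICM cells, a log2 change of 2.85 in old vs young (SE 0.07, adjusted p = 2.41e-19, edgeR) and -2.82 in ICM vs old (adjusted p = 6.29e-20). TGFB2, a ligand of the TGF-β family, went from 48.4 ± 2.62 CPM in young to 183 ± 11.2 in old (log2 change 1.92, adjusted p = 4.26e-16) and 62.1 ± 2.55 in ICM cells (-1.56 against old, adjusted p = 3.29e-15). NT5E, the ectonucleotidase CD73, was at 241 ± 7.38, 830 ± 22.3 and 393 ± 7.18 CPM in young, old and ICM cells, and rose against young in both (adjusted p = 1.2e-16 and 3.92e-10). GADD45A, a stress and growth arrest gene, rose by log2 changes of 0.62 in ICM vs young (adjusted p = 7.26e-07, edgeR) and 0.85 in old vs young (adjusted p = 6.18e-09). NUAK2, a kinase, was higher in ICM than in old cells (18.3 ± 1.84 against 13.3 ± 1.97 CPM, adjusted p = 0.000813). In young cells NUAK2 stood at 20.2 ± 1.18 CPM, above old (adjusted p = 5.66e-05, edgeR) and not called against ICM (adjusted p = 0.247). In footprints, IGFBP3 and TGFB2 had changes of 2.79 and 1.71 on the log2 scale in old vs young (adjusted p = 4.81e-13 and 2.72e-07, edgeR). NT5E footprints rose in old vs young (1.38, adjusted p = 2.04e-06, edgeR) but were not called in ICM vs young (0.55, adjusted p = 0.0818). GADD45A was called in ICM vs young (1.45, adjusted p = 0.000663, edgeR), and NUAK2 was not called in ICM vs old (1.23, adjusted p = 0.204). In Ribo-seq, 3, 9 and 4 of 12 tested targets were called in ICM vs young, old vs young and ICM vs old, and 2, 3 and 2 of 13 tested Hippo genes, against 26.6%, 36.3% and 13.4% of all genes; TEAD1 was the only TEAD or VGLL gene tested there and was not called. GADD45A in old vs young was the only call in translational efficiency over the 3 lists (edgeR), and DESeq2 did not make it.

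**Figure D5:**
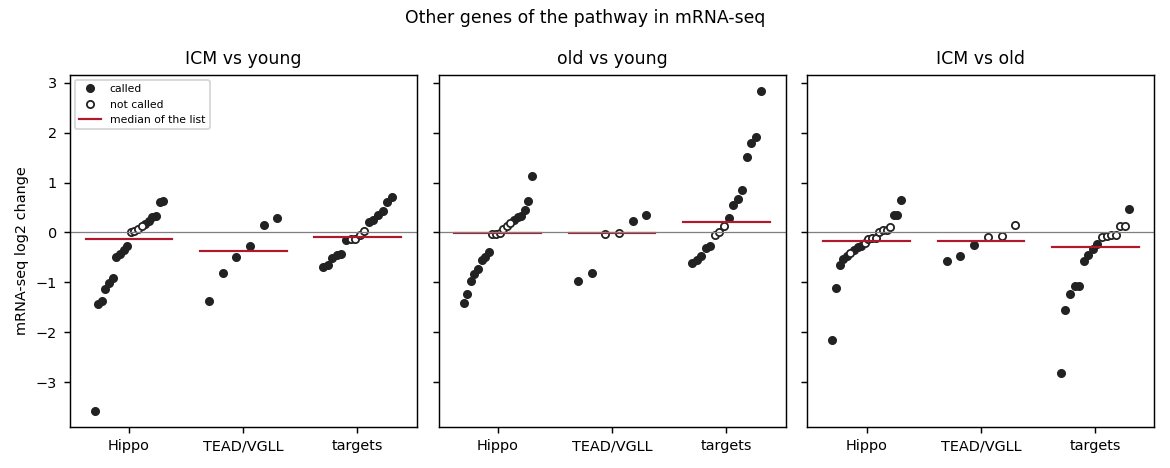
mRNA-seq log2 change (y axis) of each tested gene of the 3 pathway lists, 20 Hippo genes, 6 TEAD or VGLL genes and 16 further targets, sorted within each list, for the 3 comparisons. Filled points passed an adjusted p of 0.05 and red lines are list medians; in old vs young the targets' median is 0.20, and in ICM vs old it is -0.29.

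Likeness of pattern was measured as the root mean square difference of centred log2(CPM + 0.5) over the 9 mRNA-seq libraries, among 10809 genes of at least 5 CPM. The nearest genes were RBPJ (0.05) and EVI5 (0.08) to YAP1, PSAP and ASCC3 (both 0.04) to WWTR1, FNDC3B (0.05) and TMEM63A (0.06) to LATS2, and ADGRA2 (0.05) and RCC2 (0.06) to AXL. CTGF was nearest to LOC102724488 (0.10) and SARAF (0.12), CYR61 to MAPK1IP1L and AP1AR (both 0.05), and AMOTL2 to ZNF316 (0.05) and PTPN14 (0.07). The measure was not scaled to the size of a gene's changes. ANKRD1 had the largest distances of the members. Its nearest genes, CLDN1 (0.42) and TMEM178B (0.44), stood at 23.2 and 4.85 CPM in young, 289 and 199 CPM in old and 6.53 and 1.76 CPM in ICM cells.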

How the data were processed

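Ribo-seq and mRNA-seq libraries of IMR90 cells were grouped by the sample titles. The authors deposited estimated counts per gene symbol and transcript region, not scaled to depth. Their processing notes name STAR 2.6.0c, featureCounts and DESeq2, and the annotation of these tables is not given in the sources used here. CDS reads (Ribo-seq) or the 5′ UTR, CDS and 3′ UTR reads together (mRNA-seq) were rounded to whole numbers, and quasi-likelihood tests (edgeR 4.0.16, R 4.3.3, with TMM and filterByExpr) took the 9 libraries of an assay in one fit. Translational efficiency was the interaction of assay and condition with the lysate as a block. Tests were two-sided, with Benjamini-Hochberg adjustment over all genes. The study's own tool, anota2seq, was not used here. The fits were tested on simulated data. All members were named; pathway genes were named where called, at 5 CPM or more, without overlap and among the 3 largest rises or falls of a comparison. The members, lists and tests were chosen with earlier results of these data known. Alternatives were DESeq2 1.42.0, RLE scaling, no filter, other thresholds, only the compared groups, a replicate block, CDS reads only and leaving out lysates; joint scaling of both assays and 5′ UTR shares without 3 lysates were added after the data were seen. Some marker lists are not reported here.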

Additional observations from a re-analysis of the deposited data

Results flagged for a closer look

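ANKRD1 mRNA was flagged because it rose in every old library and fell in every ICM library relative to the young libraries, and the difference between the conditions itself passed the test, at a log2 change of -6.42 in ICM vs old (edgeR).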

How the results depend on the processing

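In mRNA-seq and Ribo-seq, no called member changed direction under any alternative run. With a required absolute log2 change over 0.6, mRNA-seq had 3, 3 and 2 called members in ICM vs young, old vs young and ICM vs old. In translational efficiency, the count in ICM vs young was 0 with RLE scaling, 0 without a filter and 0 without the 3 lysates that stood apart, and 0 to 1 when each replicate was left out; in ICM vs old it was 1 at an adjusted p under 0.15 and 0 to 1 when each replicate was left out. Fits with a replicate block called 6, 5 and 6 members in mRNA-seq and 2, 2 and 2 in Ribo-seq, as without it, and translational efficiency without the replicate block called 1, 0 and 0. Same-numbered libraries of different conditions deviated together with r from -0.07 to 0.12 in mRNA-seq and 0.0009 to 0.04 in Ribo-seq, so the numbers were not taken to pair conditions. The lysate block rests on the methods, since paired assays gave r from -0.06 to 0.11. Depth limits the ICM footprints, where 4 of 8 members had under 50 reads.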
